A study of Homo sapiens with 18 samples.

Results

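NDRG1, PDK1, BNIP3, P4HA1, ADM and ANKRD37 are hypoxia response genes: each is a known transcriptional target of the hypoxia-inducible factors (HIFs). They were followed across 18 Affymetrix 3′ expression arrays of 2 human melanoma lines, C32 and A375M2. The set was chosen by measured values of these arrays, so its levels and differences are given as a description and carry no test. All 8 probe sets annotated to the 6 genes, of 23416 probe sets in the table, were taken: 2 each for PDK1 and BNIP3 and 1 each for the other genes. All 8 passed the filter on low values (log2 4 or more on at least 3 arrays), and the genes are 6 of the 10940 that passed it.

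Lentiviral vectors had been put into the cells, and the labels place 3 arrays in each of 6 groups. In C32 these were short hairpin RNAs (shRNAs) against FHL2 (C32 shFHL2) and a GFP vector (C32 GFP). In A375M2, a metastatic derivative of the line A375, they were shRNAs against FHL2 (shFHL2), shRNAs against NFYA (shNFYA), full-length PMEL from a vector with a CMV promoter and GFP (PMEL), and GFP. FHL2 is a LIM-domain scaffold protein, NFYA is part of NF-Y, which binds CCAAT boxes, and PMEL is the fibril protein of melanosomes. The FHL2 shRNA reagent is a pool of 3 constructs, so the arrays do not separate the constructs, and a non-targeting shRNA is not among the labelled groups. The series describes both an empty GFP vector and a copGFP control, and the labels do not say which of them the GFP arrays hold. A375M2 cells were selected with a drug, sorted for the highest GFP and collected near confluence. For C32 and for the NFYA shRNAs the labels state none of this. No group is labelled as hypoxic, and the labels do not state the oxygen level of the cultures. The A375M2 arrays are described as separate experiments, while for C32 nothing says that the cultures were separate, so its spread may be technical.

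HIFs are dimers of an oxygen-labile alpha subunit, encoded by HIF1A or EPAS1, and the stable partner ARNT. In oxygenated cells prolyl hydroxylases of the EGLN family mark the alpha subunit for the VHL ubiquitin ligase, and low oxygen spares it, so that the level of its mRNA is a poor guide to its activity. The dimer binds hypoxia response elements and raises genes that shift metabolism to glycolysis, limit mitochondrial work, build blood vessels and stiffen the matrix. In melanoma cells HIF1A is also known as a target of the pigment-lineage factor MITF.

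The core of a hypoxia response element is the sequence ACGTG or GCGTG, and the windows below are shown because they lie just before the annotated starts of these genes and hold such cores. Windows were found for 5 of the 6 genes in RefSeq's promoters of build GRCh38.p14, and NDRG1 had no match. Capitals mark every ACGTG or GCGTG on either strand (CACGT and CACGC are the same cores read on the opposite strand), and each sequence runs 5′ to 3′ on the gene's strand and ends at the base before the start.
BNIP3: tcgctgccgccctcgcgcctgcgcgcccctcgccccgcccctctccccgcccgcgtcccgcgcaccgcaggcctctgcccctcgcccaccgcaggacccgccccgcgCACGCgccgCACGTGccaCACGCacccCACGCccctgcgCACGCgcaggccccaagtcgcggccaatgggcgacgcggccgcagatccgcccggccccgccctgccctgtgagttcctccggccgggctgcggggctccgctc
P4HA1: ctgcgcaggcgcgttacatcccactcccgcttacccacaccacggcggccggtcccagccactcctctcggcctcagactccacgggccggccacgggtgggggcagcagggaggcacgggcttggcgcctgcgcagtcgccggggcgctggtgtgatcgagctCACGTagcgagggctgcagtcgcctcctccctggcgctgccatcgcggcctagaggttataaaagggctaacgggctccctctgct
ADM: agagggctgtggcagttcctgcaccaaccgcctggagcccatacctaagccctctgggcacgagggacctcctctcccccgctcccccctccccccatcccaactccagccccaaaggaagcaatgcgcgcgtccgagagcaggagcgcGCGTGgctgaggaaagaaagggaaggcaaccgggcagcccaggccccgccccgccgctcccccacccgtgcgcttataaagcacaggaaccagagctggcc
ANKRD37: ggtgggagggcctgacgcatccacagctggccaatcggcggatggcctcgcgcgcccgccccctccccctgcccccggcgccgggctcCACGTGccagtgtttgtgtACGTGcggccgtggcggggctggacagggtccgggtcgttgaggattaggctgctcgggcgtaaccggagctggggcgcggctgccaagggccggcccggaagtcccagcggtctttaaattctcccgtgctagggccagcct
PDK1: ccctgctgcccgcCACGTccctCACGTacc

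The BNIP3 window of 250 bases, at chr10:131981924-131982173 on the minus strand, held 4 GCGTG cores and a palindromic CACGTG that counts once on each strand, all between 143 and 104 bases before the start. The P4HA1 window, at chr10:73096867-73097116 on the minus strand, held 1 ACGTG, 86 bases before the start. The ADM window, at chr11:10304823-10305072 on the plus strand, held no ACGTG and 1 GCGTG, 101 bases before the start. ANKRD37, at chr4:185396591-185396840 on the plus strand, had a palindromic CACGTG whose strands read from 162 and 161 bases before the start, and a further ACGTG at 143. PDK1 has 2 annotated starts: the 250 bases before the upstream one held neither core, and those before the downstream one held 2 copies of ACGTG, 17 and 8 bases before the start. Only the last 30 bases before that downstream start are shown, at chr2:172556060-172556089 on the plus strand. Neither core is rare in windows of this length. At least 1 ACGTG stood in 18.5% of all 35116 windows and in 22.5% of the 13420 windows of genes tested here. At least 1 GCGTG stood in 32.2% and 43.6% of the same windows. Among the 73 windows of the other HIF targets tested the shares were 49.3% for ACGTG and 54.8% for GCGTG. These matches are descriptions of letters, and no binding was measured.

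**Figure D1:**
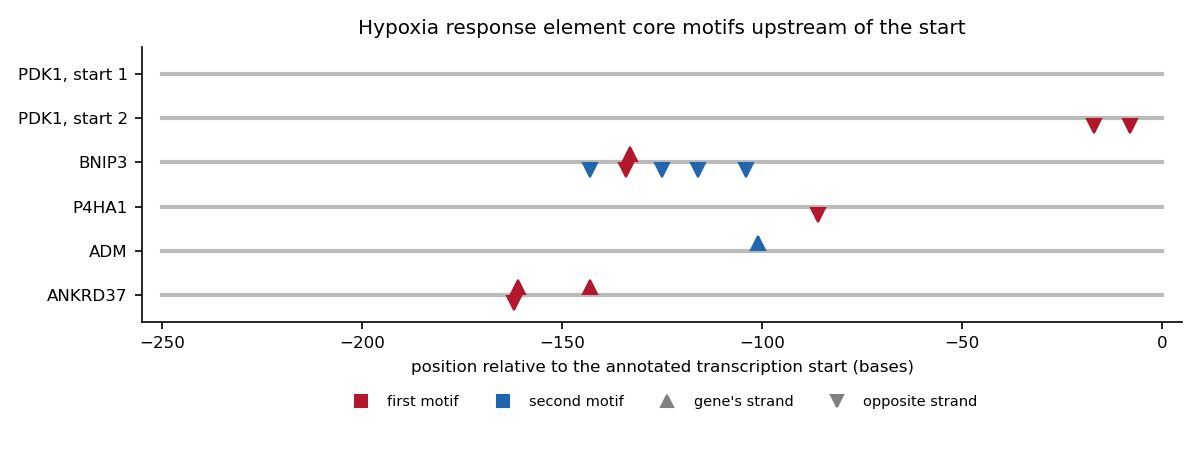
Positions of hypoxia response element cores before the annotated starts. Each grey line is the 250 bases before the start (x axis, bases from the start); red triangles mark ACGTG and blue ones GCGTG, pointing up on the gene's strand and down on the opposite strand, by the first base of the match. BNIP3 holds the most matches, and the upstream start of PDK1 none.

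Values throughout are the deposited GCRMA signals on the log2 scale, and a difference is the mean of the first-named group minus that of the other, with the SE from a limma fit. Several arrays are not independent by their values. Replicate 3 of C32 GFP departed from the average of its replicates 1 and 2 by an SD of just 0.00806 log2 across 22359 probe sets. The same SD was 0.135 to 0.208 for the other 17 arrays, so this array was left out and C32 GFP has 2 arrays. The sum of A375M2 PMEL replicate 3 and GFP replicate 3 matched 2 times the mean of the other 4 arrays of these groups with an SD of 0.00725, against 0.256 for the same sum of shFHL2 and shNFYA, so these 2 arrays bring the spread of 1. Leaving both out moved the differences of these genes little, with 1 exception given for ANKRD37. Exact low values were shared within sets of arrays: shFHL2 and shNFYA arrays of A375M2 shared 300 to 749 such values with one another and 0 with the GFP arrays, and the C32 GFP arrays used also shared 0 with the A375M2 GFP arrays. The contrasts of A375M2 shFHL2 or shNFYA with GFP, and of C32 GFP with A375M2 GFP, therefore cross array sets, and there the array set and the shRNA or the line cannot be told apart. C32 shFHL2 against C32 GFP, A375M2 PMEL against GFP and A375M2 shFHL2 against shNFYA do not cross sets in this way. The third arrays of PMEL, GFP and C32 GFP shared 215 to 514 such values with one another and 0 with all other arrays. Ribosomal 18S probe sets read 14.18 and 14.19 in A375M2 shFHL2 and shNFYA, 11.08 in PMEL and 12.52 in GFP. Poly-A spike-ins read 5.96 in C32 shFHL2, 9.37 in C32 GFP and 7.15 in A375M2 GFP, and hybridisation spike-ins 11.46, 12.44 and 11.67 in these groups. The actin 3′ minus 5′ signal, a sign of RNA quality, was 0.87 in C32 shFHL2 and 1.08 in C32 GFP. In A375M2 it was 1.07 in shFHL2, 1.19 in shNFYA and 0.74 in PMEL, against 0.61 in GFP, and the arrays of both shRNA groups and of C32 GFP did not overlap those of A375M2 GFP. The part of these measures in the differences was not tested.

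The labels held for the manipulated genes. FHL2 stood at 5.83 in C32 shFHL2 and 11.08 in C32 GFP, and at 7.17 in A375M2 shFHL2 and 11.21 in A375M2 GFP. NFYA stood at 7.52 in A375M2 shNFYA and 9.59 in GFP, and PMEL at 8.95 in A375M2 PMEL and 5.57 in GFP. Of the melanocyte markers, 7 of 8 were tested: SOX10 was between 11.79 and 12.88 in all 6 group means, and MITF was 10.05 in shFHL2 and 8.95 in shNFYA, against 14.24 in A375M2 GFP. MLANA was at the lowest levels of the array in all A375M2 groups (2.18 to 2.38) and at 12.25 in C32 shFHL2 and 14.00 in C32 GFP. The mean of the 7 markers spanned 6.51 to 6.58 on the shFHL2 arrays and 6.199 to 6.405 on the shNFYA arrays, against 8.82 to 8.87 on the A375M2 GFP arrays. In C32 it spanned 10.46 to 10.50 on shFHL2 arrays and 12.66 to 12.75 on GFP arrays. Markers of other cell types also differed. KRT8 and KRT14, the 2 of 5 keratinocyte markers tested, averaged 3.78 to 3.89 on shFHL2, 4.72 to 5.10 on shNFYA and 2.94 to 2.95 on GFP arrays of A375M2. The shFHL2 and GFP averages lie under log2 4. KRT14 reached log2 4 only in shNFYA, so it passed the filter through that group alone. LYZ and PTPRC, the 2 of 3 leukocyte markers tested, averaged 5.75 to 5.83 on shFHL2, 5.73 to 5.85 on shNFYA and 2.93 to 3.14 on GFP arrays of A375M2. LYZ alone stood at 9.45, 9.40 and 3.74, and PTPRC at 2.16, 2.16 and 2.27, in these groups. In C32, PTPRC stood at 7.80 in shFHL2 and 8.63 in GFP. LYZ went the other way there, at 5.69 in shFHL2 and 3.70 in GFP, where its 2 arrays read 2.715 and 4.693. The 5 fibroblast markers tested averaged 5.51 to 5.57 on shFHL2, 5.37 to 5.50 on shNFYA and 7.55 to 7.58 on GFP arrays of A375M2. COL1A1 went the other way, at 7.05, 6.78 and 5.77 in these groups, while the other 4 were lower in both shRNA groups. KDR, the 1 endothelial marker tested, stood at 7.83 in C32 shFHL2 and 10.18 in C32 GFP. In A375M2 it stood at 7.58 in shFHL2, 5.86 in shNFYA and 5.555 in PMEL, against 6.83 in GFP. The part of these markers in the results was not tested. In total RNA, a gene's lower signal per cell and fewer cells that express it cannot be told apart.

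Between the lines, all 8 probe sets were higher in C32 GFP than in A375M2 GFP, by 0.83 to 3.11 for 7 of them and by 3.69 for NDRG1. This comparison crosses array sets, and 38.7% of all genes tested were called higher and 47.2% lower in it. The 6 genes were chosen by measured values of these arrays, so nothing is read from the shared direction. With the shRNAs and PMEL the 6 genes did not share a direction. In each vector comparison against GFP some of the 6 were higher and others lower. Within groups the arrays lay close, with a median SD of 0.0426 and a highest SD of 0.291 for the weaker probe set of PDK1 in C32 GFP.

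**Figure D2:**
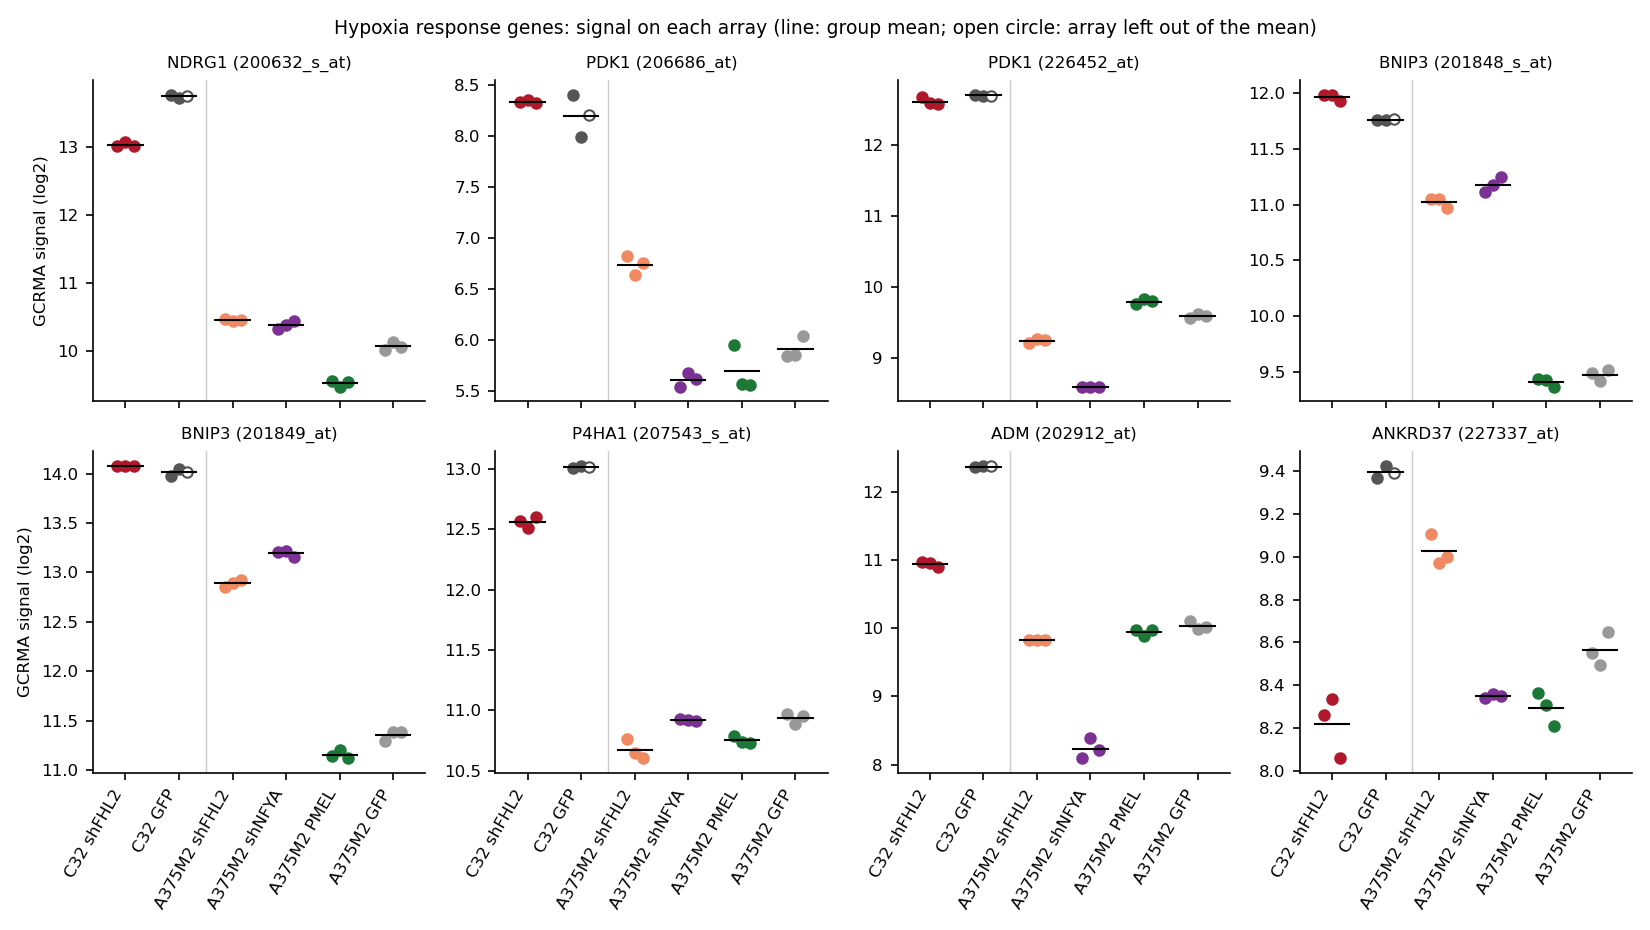
Signal of each probe set of the 6 genes on each array (y axis, GCRMA signal, log2, with its own range in each panel) in the 6 groups (x axis). Points are arrays, lines are group means, and the open circle is C32 GFP replicate 3, which was left out. In every panel both C32 groups lie above the 4 A375M2 groups except for ANKRD37, where C32 shFHL2 has the lowest mean, 8.22.

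NDRG1 encodes a stress-responsive cytoplasmic protein, known as a gene that N-Myc represses and as an inhibitor of metastasis in several carcinomas. Its probe set read 13.01, 13.08 and 13.02 in C32 shFHL2, against 13.78 and 13.73 in C32 GFP. The A375M2 arrays read 10.47, 10.44 and 10.45 in shFHL2, 10.32, 10.38 and 10.45 in shNFYA, and 9.56, 9.47 and 9.55 in PMEL, against 10.02, 10.13 and 10.05 in GFP. NDRG1 thus had its lowest array in A375M2 PMEL and its highest in C32 GFP, and each vector group lay apart from the GFP arrays of its own line. The difference between the GFP groups was 3.69 (SE 0.0456), a 12.9-fold higher signal in C32. FHL2 shRNAs went with a signal 1.64-fold lower in C32 (difference -0.71, SE 0.0456) and 1.31-fold higher in A375M2 (0.39, SE 0.0408). PMEL stood 0.54 below GFP (difference -0.54, SE 0.0408) and shNFYA 0.32 above it (SE 0.0408), and the arrays of shFHL2 and shNFYA overlapped.

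PDK1 encodes pyruvate dehydrogenase kinase 1, which phosphorylates pyruvate dehydrogenase and so keeps pyruvate out of the mitochondrial citrate cycle. Its brighter probe set read 12.67, 12.59 and 12.58 in C32 shFHL2, against 12.71 and 12.69 in C32 GFP. In A375M2 it read 9.21, 9.28 and 9.25 in shFHL2, 8.60 on all 3 shNFYA arrays, and 9.77, 9.83 and 9.80 in PMEL, against 9.57, 9.62 and 9.60 in GFP. By this probe set shNFYA was 2.0-fold lower than GFP (difference -0.997, SE 0.0366), the groups of A375M2 did not overlap, and C32 GFP was 8.61-fold higher than A375M2 GFP (3.11, SE 0.0409). The dimmer probe set read 8.34, 8.35 and 8.33 in C32 shFHL2, against 8.408 and 7.996 in C32 GFP. The A375M2 arrays read 6.83, 6.64 and 6.76 in shFHL2, 5.54, 5.67 and 5.62 in shNFYA, and 5.95, 5.57 and 5.57 in PMEL, against 5.85, 5.86 and 6.04 in GFP. The probe sets shared the direction between the lines, for shNFYA against GFP and for shFHL2 against shNFYA, and opposed each other elsewhere. In A375M2 shFHL2 the brighter one was lower than in GFP (-0.35, SE 0.0366) and the dimmer one higher (0.83, SE 0.118), with no overlap of arrays in either. For PMEL the brighter one gave 0.20 (SE 0.0366) and the dimmer one -0.22 (SE 0.118), the dimmer with overlapping arrays. In C32 shFHL2 the brighter one gave -0.09 (SE 0.0409) and the dimmer one 0.14 (SE 0.132, overlapping). PDK1 therefore has no direction common to its probe sets under FHL2 shRNAs or PMEL, and the counts and medians over the 6 genes below use the brighter one.

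BNIP3 encodes a BH3-type protein of the outer mitochondrial membrane that recruits autophagosomes to mitochondria. Its brighter probe set read 14.08 on all 3 C32 shFHL2 arrays, against 13.98 and 14.05 in C32 GFP. In A375M2 it read 12.85, 12.90 and 12.93 in shFHL2, 13.21, 13.22 and 13.15 in shNFYA, and 11.15, 11.20 and 11.12 in PMEL, against 11.30, 11.38 and 11.39 in GFP. Both shRNA groups of A375M2 lay well above GFP, and the C32 groups lay above all A375M2 arrays. Against GFP, shFHL2 was 2.90-fold higher (1.54, SE 0.0339) and shNFYA 3.57-fold higher (1.84, SE 0.0339), while PMEL was slightly lower (-0.20, SE 0.0339). C32 shFHL2 and C32 GFP differed by 0.06 (SE 0.0378), and C32 GFP was 6.31-fold above A375M2 GFP (2.66, SE 0.0378). The dimmer probe set gave 1.55 (SE 0.0409) for shFHL2 and 1.70 (SE 0.0409) for shNFYA against GFP in A375M2, 0.20 (SE 0.0458) for shFHL2 in C32, and 2.29 (SE 0.0458) between the lines. The 2 probe sets thus had the same direction in every comparison, although for PMEL the arrays of the dimmer one overlapped those of GFP (-0.07, SE 0.0409). In A375M2 shFHL2 the differences of both BNIP3 probe sets were larger than those of the other 5 genes.

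P4HA1 encodes a catalytic alpha subunit of collagen prolyl 4-hydroxylase, which stabilises the collagen triple helix and itself needs oxygen. Its probe set read 12.57, 12.51 and 12.60 in C32 shFHL2, against 13.01 and 13.03 in C32 GFP. The A375M2 arrays read 10.76, 10.65 and 10.61 in shFHL2, 10.93, 10.92 and 10.91 in shNFYA, and 10.79, 10.73 and 10.73 in PMEL, against 10.97, 10.88 and 10.96 in GFP. The A375M2 groups spanned only 0.27 in their means, and C32 lay above all of them. C32 shFHL2 was 1.37-fold lower than C32 GFP (-0.46, SE 0.0445), and C32 GFP was 4.24-fold above A375M2 GFP (2.08, SE 0.0445). A375M2 shFHL2 and PMEL were lower than GFP by small margins (-0.27 and -0.19, SE 0.0398 each). The shNFYA arrays overlapped those of GFP, with a difference of -0.02 (SE 0.0398) that became 0.09 when each array was centred on its median.

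ADM encodes adrenomedullin, a secreted peptide that widens blood vessels and acts through the receptor CALCRL with a RAMP partner. Its probe set read 10.97, 10.95 and 10.89 in C32 shFHL2, against 12.36 and 12.38 in C32 GFP. In A375M2 it read 9.83 on all 3 shFHL2 arrays, 8.10, 8.39 and 8.21 in shNFYA, and 9.98, 9.88 and 9.97 in PMEL, against 10.11, 9.99 and 10.01 in GFP. ADM was lowest in A375M2 shNFYA and highest in C32 GFP, and its 6 groups did not overlap along the order of their means. C32 shFHL2 was 2.70-fold lower than C32 GFP (-1.43, SE 0.0647), the largest difference of the 6 genes there. In A375M2, shNFYA was 3.50-fold lower than GFP (-1.81, SE 0.0579), whereas shFHL2 and PMEL differed from GFP by -0.21 and -0.09 (SE 0.0579 each). A375M2 shFHL2 accordingly stood 3.02-fold above shNFYA (1.59, SE 0.0579), in a comparison that does not cross array sets.

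ANKRD37 encodes a small ankyrin repeat protein whose function is little known. Its probe set read 8.26, 8.34 and 8.06 in C32 shFHL2, against 9.37 and 9.42 in C32 GFP. The A375M2 arrays read 9.11, 8.97 and 9.0 in shFHL2, 8.34, 8.36 and 8.35 in shNFYA, and 8.36, 8.31 and 8.21 in PMEL, against 8.55, 8.50 and 8.65 in GFP. Unlike the other 5 genes, ANKRD37 was lowest in a C32 group, and the arrays of C32 shFHL2 overlapped those of A375M2 PMEL, which in turn overlapped shNFYA. C32 shFHL2 was 2.26-fold lower than C32 GFP (-1.18, SE 0.0793), and A375M2 shFHL2 was 1.37-fold higher than GFP (0.46, SE 0.0709). The difference between the GFP groups, 0.83 (SE 0.0793), was the smallest of the 6 genes. PMEL and shNFYA stood below GFP by -0.27 and -0.22 (SE 0.0709 each). Without the third arrays of A375M2 PMEL and GFP the PMEL difference was -0.19.

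**Figure D3:**
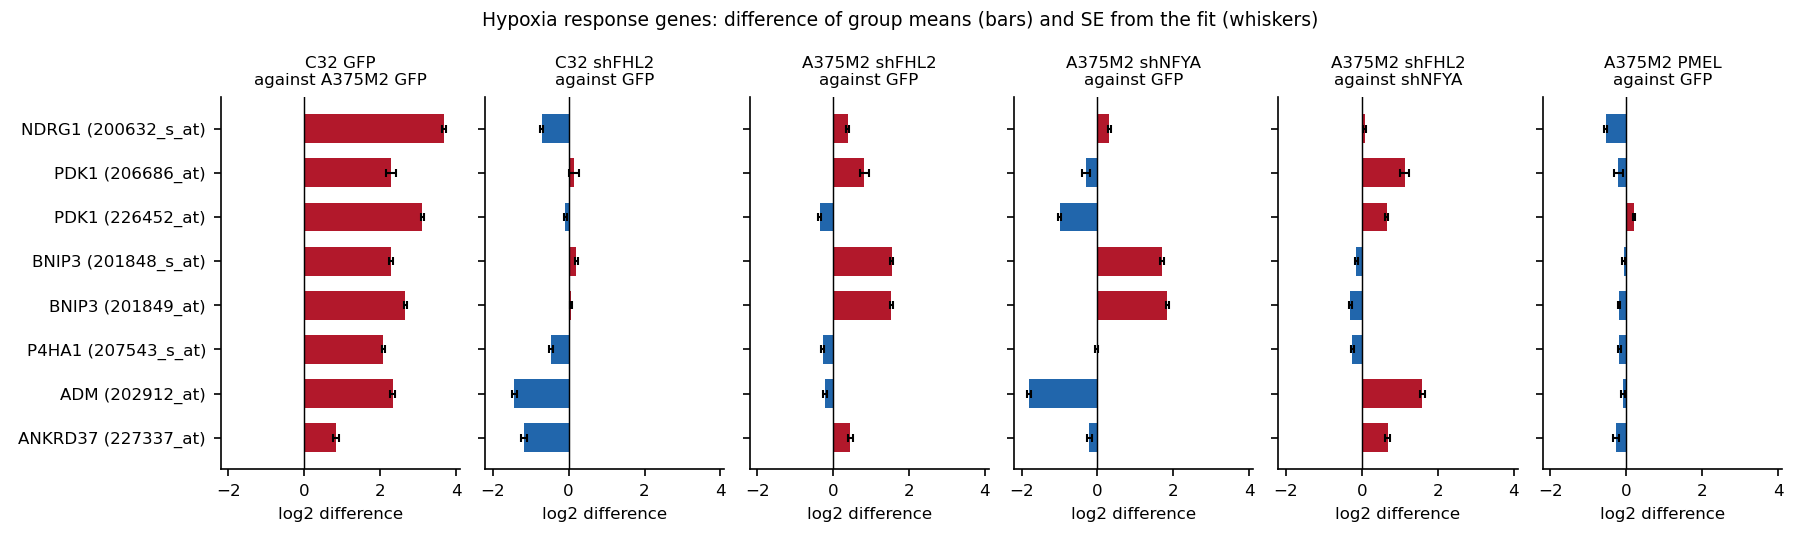
Differences of group means for the 8 probe sets in 6 comparisons (x axis, log2, the first-named group minus the other; red above 0, blue below 0; whiskers, SE from the fit). All 8 bars point to C32 GFP in the first panel, and the bars point both ways in the other panels.

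Other HIF targets were read from a list of 61 genes, of which 52 were tested: 22 of glucose uptake and glycolysis, 8 secreted, matrix or pH genes, and 22 of mitophagy, signalling and other roles. CA9, EGLN3 and 7 more listed genes were not analysed here. This list, and those of oxygen-sensing genes and of paralogs and partners below, were chosen with earlier results of these data known. Their counts and adjusted p values are therefore no independent support for the differences of the hypoxia response genes. A gene was called at a Benjamini-Hochberg adjusted p under 0.05 over all 10940 genes in limma. Of the 52 genes, 26 have several probe sets, and in each comparison between 4 and 12 of these 26 had probe sets of opposite direction. The highest-mean probe set stands for the gene. LOX reached log2 4 only in C32 GFP and CA12 only in A375M2 PMEL, so each passed the filter through that group alone. Both stay in the counts below, but their calls against that group are descriptions. The comparisons of A375M2 shFHL2, shNFYA and PMEL share their GFP arrays, so their values are set side by side and not correlated.

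Between the GFP groups of the lines, all 6 hypoxia response genes were higher in C32. Since the genes were chosen by these values, nothing is read from that count; among all genes tested 38.7% were called higher and 47.2% lower. The median difference was 2.49 over the 6 genes and -0.10 over all genes. The other HIF targets were called higher in 37 of 52 cases and lower in 11, with a median of 0.87. SLC2A1, the glucose transporter GLUT1, was 19.0-fold higher in C32 (4.25, SE 0.127, adjusted p = 8.43e-16), and SLC2A3, another glucose transporter, 4.14-fold (2.05, SE 0.0577, adjusted p = 3.61e-16). VEGFA, the vascular growth factor, was 3.57-fold higher (1.84, SE 0.0488, adjusted p = 1.61e-16), with all 3 of its probe sets higher. BHLHE40, a transcriptional repressor, was 7.41-fold higher (adjusted p = 5.86e-19), DDIT4, an inhibitor of mTOR signalling, 5.78-fold (adjusted p = 6.01e-19), and AK4, a mitochondrial adenylate kinase, 10.5-fold (adjusted p = 4.32e-18). BNIP3L, the BNIP3 paralog that also serves mitophagy, was 2.21-fold higher (1.14, SE 0.0394, adjusted p = 6.93e-15). LOXL2, a lysyl oxidase of the matrix, went the other way and was 28.0-fold lower in C32 (-4.81, SE 0.144, adjusted p = 8.91e-16). HK2, a hexokinase, was 2.49-fold higher by its brightest probe set, while its 2 other probe sets were at -1.999 and -2.535 on the log2 scale. By group of roles, 14 of 22 glycolysis genes, 6 of 8 secreted, matrix or pH genes and 17 of 22 of the remainder were higher. The 6 include LOX, which passed the filter through C32 GFP alone.

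With FHL2 shRNAs in C32, NDRG1, P4HA1, ADM, ANKRD37 and the brighter PDK1 probe set were lower than in GFP and BNIP3 was not. The PDK1 and BNIP3 differences were small, -0.09 and 0.06. Over all genes 32.2% were called higher and 30.3% lower. The median difference was -0.59 over the 6 genes and 0.00 over all genes. Of the other HIF targets 31 of 52 fell and 8 rose, with a median of -0.21. None of the 8 secreted, matrix or pH genes rose and 5 fell. The 5 include LOX, a collagen cross-linking enzyme, which read 2.95 in shFHL2, under log2 4, and 4.77 in GFP. LOX passed the filter through C32 GFP alone, so its fall against that group is a description. P4HA2, the other collagen prolyl 4-hydroxylase subunit on the list, was 1.85-fold lower (adjusted p = 3.44e-12), a call lost with its other probe set, PLOD1, a collagen lysyl hydroxylase, 1.98-fold (adjusted p = 3.21e-11), and VEGFA 1.42-fold (adjusted p = 7.74e-08). Among the glycolysis genes 12 of 22 fell and 5 rose. SLC2A1 fell by 1.11 (SE 0.127, adjusted p = 5.69e-07), SLC2A3 by 0.99 (SE 0.0577, adjusted p = 1.03e-10) and ENO2, an enolase, by 1.06 (SE 0.121, adjusted p = 5.54e-07). PFKFB4, which sets the level of a phosphofructokinase activator, rose by 0.94 (SE 0.0752, adjusted p = 6.36e-09). Of the remaining 22 genes 14 fell and 3 rose. BHLHE40 fell by 1.07 (adjusted p = 8.29e-12), VLDLR, a lipoprotein receptor, by 1.56 (adjusted p = 3.7e-09), WSB1, a ubiquitin ligase adaptor, by 0.93 (adjusted p = 8.72e-12) and BNIP3L by 0.39 (adjusted p = 1.28e-07). The poly-A spike-in difference stated above lies in this same comparison.

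With FHL2 shRNAs in A375M2, 3 of the 6 genes were higher than GFP (BNIP3, ANKRD37 and NDRG1) and 3 lower (ADM, P4HA1 and PDK1 by its brighter probe set). Over all genes 41.1% were called higher and 44.3% lower. The median difference was 0.09 over the 6 genes and -0.04 over all genes. Of the other HIF targets 14 rose and 29 fell, with a median of -0.23. Among 22 glycolysis genes 15 fell and 2 rose. HK1, a hexokinase, was 3.54-fold lower (-1.83, SE 0.0583, adjusted p = 3.44e-15), GPI, glucose phosphate isomerase, 3.00-fold (adjusted p = 7.5e-17), PFKFB3, a paralog of PFKFB4, 2.84-fold (adjusted p = 1.83e-16) and ALDOA, an aldolase, 1.89-fold (adjusted p = 1.68e-13). SLC2A1 was one of the 2 that rose, 5.65-fold (2.50, SE 0.113, adjusted p = 5.24e-13). Among 8 secreted, matrix or pH genes 4 rose and 2 fell. The 2 include CA12, which read 2.19 in shFHL2 and 2.80 in GFP, both under log2 4. Its call here and in shNFYA was lost when values under log2 4 were set to 4. STC2, a secreted glycoprotein hormone, read 7.19 in shFHL2 and 2.42 in GFP (adjusted p = 6.66e-17), the GFP value lying under the minimum of log2 4, so no fold is given. VEGFA was 3.04-fold higher (1.61, SE 0.0436, adjusted p = 3.47e-16) and P4HA2 1.71-fold (adjusted p = 6.09e-13), while LOXL2 was 5.78-fold lower (-2.53, SE 0.129, adjusted p = 2.73e-12). Of the remaining 22 genes 8 rose and 12 fell. VLDLR rose by 2.51 (adjusted p = 2.19e-13) and DDIT4 by 1.17 (adjusted p = 1.01e-14), and MXI1, an antagonist of MYC, was 2.15-fold lower (adjusted p = 9.36e-15). BNIP3L was 1.51-fold lower (-0.59, SE 0.0353, adjusted p = 2.63e-11), opposite in sign to BNIP3.

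The effect of the FHL2 shRNAs was set against itself across the lines as a difference of differences, C32 minus A375M2, where 42.1% of all genes were called higher and 38.1% lower. For 5 of the 6 hypoxia response genes the effect was more negative in C32, by -1.63 (SE 0.106) for ANKRD37, -1.47 (SE 0.0508) for BNIP3, -1.22 (SE 0.0868) for ADM, -1.10 (SE 0.0612) for NDRG1 and -0.19 (SE 0.0597) for P4HA1. PDK1 gave 0.26 (SE 0.0548) by its brighter and -0.69 (SE 0.177) by its dimmer probe set. Among the other HIF targets the effect differed in 44 of 52, more positive in C32 in 25 and more negative in 19, with a median of 0.12 beside 0.06 over all genes. Glycolysis genes made up 14 of the 25 and secreted, matrix or pH genes 6 of the 19. The A375M2 side of this contrast crosses array sets.

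**Figure D4:**
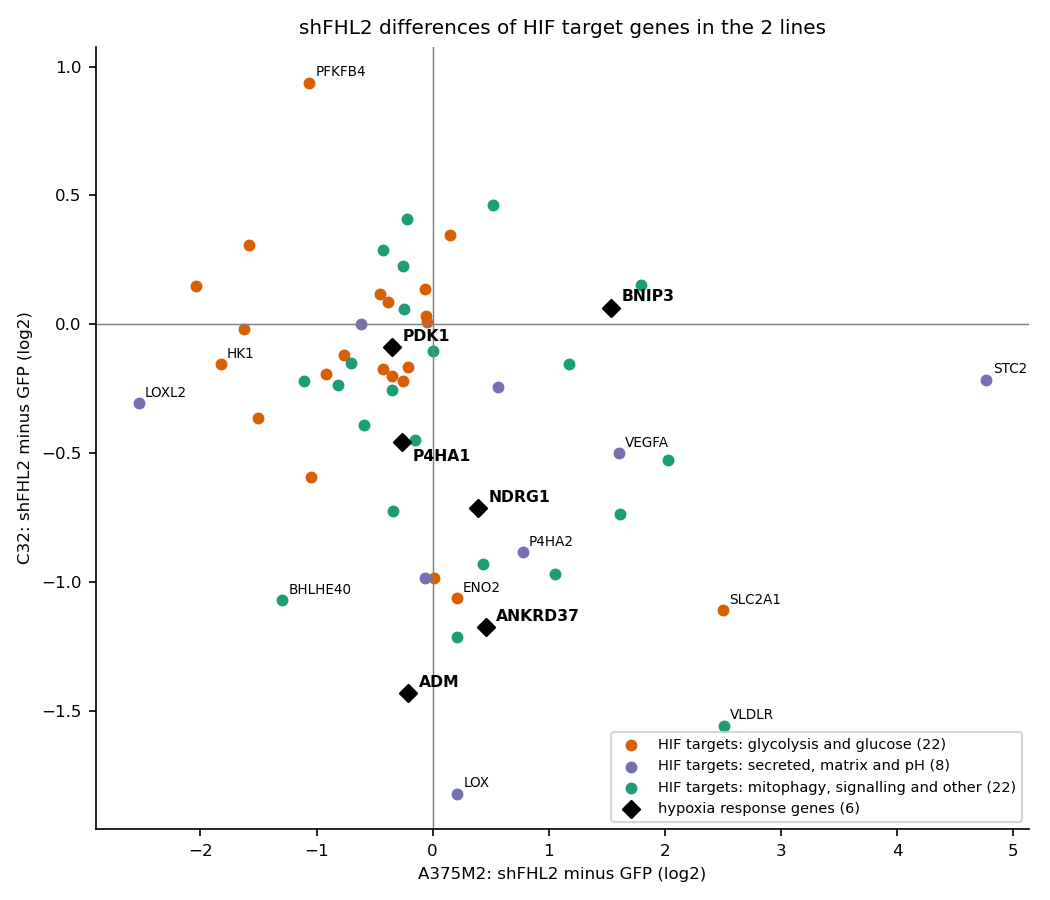
Difference between shFHL2 and GFP for 52 other HIF targets (coloured by role) and the 6 hypoxia response genes (black diamonds) in A375M2 (x axis, log2) and in C32 (y axis, log2). ADM lies at -1.43 on the C32 axis and -0.21 on the A375M2 axis, BNIP3 at 0.06 and 1.54, and SLC2A1 and VLDLR are high in A375M2 and low in C32.

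With NFYA shRNAs in A375M2, BNIP3 and NDRG1 were higher than GFP, ADM, PDK1 and ANKRD37 were lower, and the P4HA1 arrays overlapped those of GFP. Over all genes 43.5% were called higher and 43.3% lower. The median difference was -0.12 over the 6 genes and 0.00 over all genes. Of the other HIF targets 18 rose and 26 fell, with a median of -0.15. Among 22 glycolysis genes 17 fell and 4 rose. PFKFB3 was 5.64-fold lower (-2.50, SE 0.0391, adjusted p = 1.07e-19), HK1 5.02-fold (adjusted p = 7.41e-17) and PFKFB4 4.61-fold (adjusted p = 1.24e-15), while SLC2A1 was 8.27-fold higher (3.05, SE 0.113, adjusted p = 2.25e-14). STC2 read 6.76 in shNFYA and 2.42 in GFP (adjusted p = 1.64e-16), again with GFP under log2 4. VEGFA was 2.31-fold higher (1.21, SE 0.0436, adjusted p = 1.49e-14) and LOXL2 13.7-fold lower (-3.77, adjusted p = 6.4e-15). P4HA2 was 3.03-fold higher by its brighter probe set (adjusted p = 1.47e-17), while its other probe set was lower by 0.62 on the log2 scale. Of the remaining 22 genes 11 rose and 6 fell: VLDLR rose by 3.90 (adjusted p = 2.79e-16), BNIP3L by 0.10 (SE 0.0353, adjusted p = 0.0128, a call lost with array weights and without shNFYA replicate 1), and MXI1 was 3.00-fold lower (adjusted p = 3.93e-17). Centring each array on its median would raise every A375M2 shNFYA difference by 0.105 and every shFHL2 difference there by 0.097, and it took the sign of P4HA1 in shNFYA with it.

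The shRNA groups of A375M2 share an array set, so their direct comparison does not cross sets. In shFHL2, ADM, ANKRD37 and both PDK1 probe sets were higher than in shNFYA, BNIP3 and P4HA1 were lower, and the NDRG1 arrays overlapped. Over all genes 31.8% were called higher and 38.3% lower. The median difference was 0.36 over the 6 genes and -0.03 over all genes. ADM had the largest difference, 1.59 (SE 0.0579). PDK1 gave 0.65 (SE 0.0366) and 1.13 (SE 0.118) by its 2 probe sets, ANKRD37 0.67 (SE 0.0709), BNIP3 -0.30 (SE 0.0339) and P4HA1 -0.25 (SE 0.0398). Of the other HIF targets 19 were higher and 22 lower, with a median of 0.00. PFKFB3 was 1.98-fold higher (adjusted p = 3.71e-13), PFKFB4 2.21-fold higher (adjusted p = 7.95e-11), LDHA, lactate dehydrogenase A, 1.51-fold higher (adjusted p = 4.5e-11) and VEGFA 1.32-fold higher (adjusted p = 2.75e-07) in shFHL2, the last a call lost with its probe set of largest variance. BNIP3L was 1.62-fold lower (-0.69, SE 0.0353, adjusted p = 1.14e-11), JMJD6, an arginine demethylase and lysyl hydroxylase, 1.66-fold lower (adjusted p = 1.01e-10) and SLC2A1 1.46-fold lower (adjusted p = 0.00033).

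The fewest genes were called for PMEL. Against GFP, 5 of the 6 genes were lower and PDK1 by its brighter probe set was higher. Over all genes 22.1% were called higher and 17.8% lower. The median difference was -0.19 over the 6 genes and 0.02 over all genes, and the range was -0.54 for NDRG1 to 0.20 for PDK1. Of the other HIF targets 7 rose and 20 fell, with a median of -0.03. Without the third arrays of PMEL and GFP these counts were 5 and 18. The 7 include CA12, which passed the filter through the PMEL group alone. TMEM45A, a transmembrane protein, was 2.35-fold lower (-1.23, SE 0.0897, adjusted p = 1.24e-08), P4HA2 1.40-fold lower (adjusted p = 1.43e-08) and MAFF, a small bZIP factor, 1.35-fold lower (adjusted p = 4.78e-09). SLC2A3 was 1.43-fold higher (0.52, SE 0.0516, adjusted p = 4.8e-07). VEGFA fell by 0.21 (SE 0.0436, adjusted p = 0.000886, a call lost with its probe set of largest variance) and BNIP3L by 0.19 (SE 0.0353, adjusted p = 0.000329), and SLC2A1 differed by 0.08 (SE 0.113, adjusted p = 0.631).

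**Figure D5:**
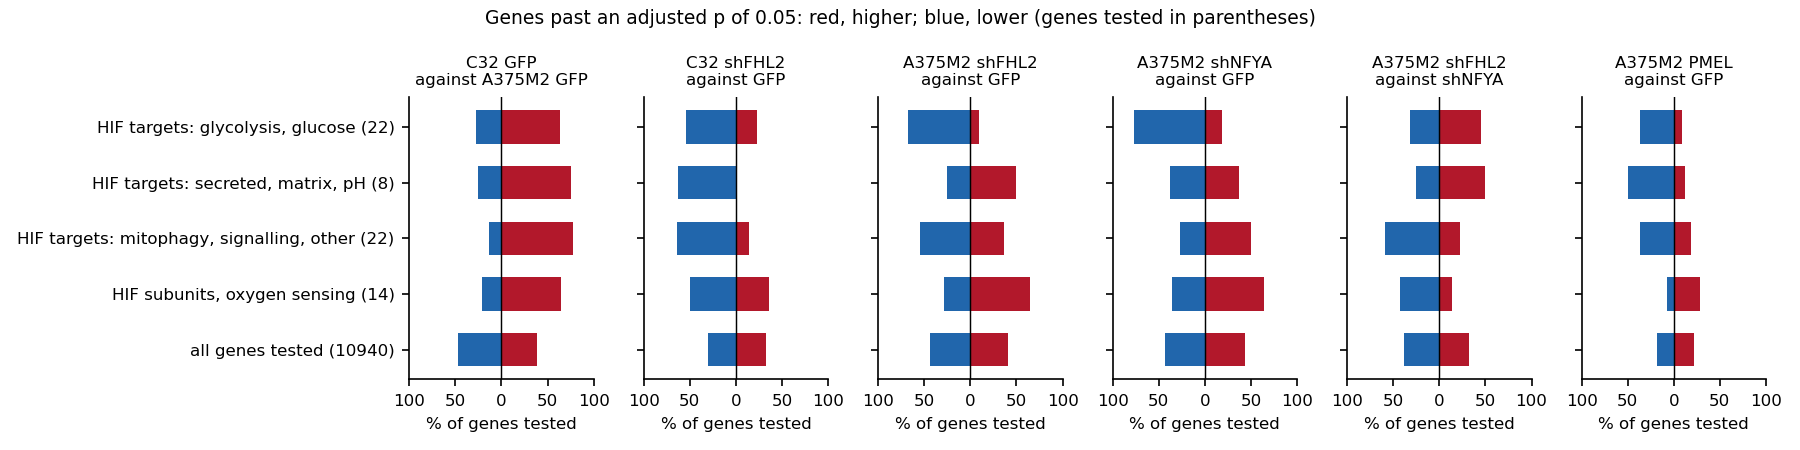
Share of genes called higher (red, to the right) and lower (blue, to the left) at an adjusted p under 0.05 (x axis, percent of the genes tested) for 3 groups of HIF targets, the oxygen-sensing genes and all genes tested, in 6 comparisons. In C32 GFP against A375M2 GFP 37 of 52 targets lie to the right, and in C32 shFHL2 against GFP 31 of 52 lie to the left.

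Genes of the HIF subunits and of oxygen sensing were 14 of 16 listed, with HIF3A and EGLN2 not analysed here. Their mRNAs say nothing of HIF protein. EPAS1, which encodes HIF-2 alpha, read 7.37 ± 0.05 in C32 shFHL2 (SD, n = 3), against 8.89 ± 0.04 in C32 GFP (SD, n = 2). In A375M2 it read 6.15 ± 0.03 in shFHL2, 6.54 ± 0.13 in shNFYA and 4.89 ± 0.08 in PMEL, against 5.23 ± 0.14 in GFP (SD, n = 3 each). EPAS1 was thus lower with FHL2 shRNAs in C32 (-1.53, SE 0.101, adjusted p = 5.25e-10) and higher in A375M2 (0.92, SE 0.0904, adjusted p = 3.2e-08), and C32 GFP was 12.7-fold above A375M2 GFP (adjusted p = 2.74e-16). HIF1A moved less: it fell by 0.35 in C32 shFHL2 (SE 0.0464, adjusted p = 3.74e-06) and was higher in A375M2 shFHL2 by 0.32 (SE 0.0415, adjusted p = 1.07e-06) and in shNFYA by 0.36 (SE 0.0415, adjusted p = 2.3e-07), and the PMEL difference of -0.01 did not pass (adjusted p = 0.921). VHL, which encodes the substrate receptor of the ligase, rose in A375M2 shFHL2 (0.84, SE 0.0677, adjusted p = 1.91e-09) and in shNFYA (1.53, SE 0.0677, adjusted p = 2.79e-13). HIF1AN, which hydroxylates the alpha subunit's activation domain, was 3.20-fold higher in shNFYA (adjusted p = 1.44e-14). Of the 14 genes, 5 rose and 7 fell in C32 shFHL2, where 32.2% of all genes rose and 30.3% fell. In A375M2 shFHL2 9 rose and 4 fell, beside 41.1% and 44.3% of all genes, and in shNFYA 9 rose and 5 fell, beside 43.5% and 43.3%. With PMEL 4 rose and 1 fell, beside 22.1% and 17.8%. Between the lines 9 were higher and 3 lower in C32 GFP, beside 38.7% and 47.2%.

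Paralogs and partners of the 6 genes were 12 of 20 listed. CALCRL, RAMP2 and RAMP3, which form adrenomedullin receptors, were not analysed here. PDK4, a paralog of PDK1, read 10.38 ± 0.03 in A375M2 shFHL2, 6.75 ± 0.22 in shNFYA and 13.22 ± 0.05 in PMEL, against 13.53 ± 0.09 in GFP (SD, n = 3 each). On the 5 C32 arrays used it stood at the same low value, 2.33. PDK4 fell by 3.15 in shFHL2 (SE 0.0832, adjusted p = 2.36e-16) and by 6.78 in shNFYA (SE 0.0832, adjusted p = 4.98e-21). Its other probe set gave -6.85 and -7.07, with 0.22 between the 2 shRNA groups against 3.63 for this one. The size of the fall in shFHL2 thus depended on the probe set. Between the lines PDK4 differed in the opposite direction to PDK1. Among the subunits of pyruvate dehydrogenase, the enzyme that PDK1 inhibits, PDHA1 rose in C32 shFHL2 by 0.55 (SE 0.0397, adjusted p = 1.65e-09), DLAT by 0.50 (SE 0.0574, adjusted p = 5.7e-07) and DLD by 0.34 (SE 0.0305, adjusted p = 3.09e-08). In A375M2 shFHL2 the subunits did not share a direction: PDHA1 fell by 0.22 (SE 0.0355, adjusted p = 1.51e-05) and DLD by 0.16 (SE 0.0273, adjusted p = 3.14e-05). DLAT rose in A375M2 shFHL2 (0.83, SE 0.0514, adjusted p = 4.27e-11) and in shNFYA (1.11, adjusted p = 5.57e-13) and fell by 0.86 in PMEL (SE 0.0514, adjusted p = 9.24e-10), and all of its 3 probe sets had these directions. P4HB, the beta subunit that pairs with P4HA1, fell by 0.91 in C32 shFHL2 (SE 0.0789, adjusted p = 1.77e-08) and by 0.90 in A375M2 shFHL2 (SE 0.0706, adjusted p = 1.33e-09), with all 3 probe sets lower in both. Of the 12 genes, 4 rose and 4 fell in C32 shFHL2, beside 32.2% and 30.3% of all genes. In A375M2 shFHL2 1 rose and 10 fell, beside 41.1% and 44.3%, and in shNFYA 4 rose and 8 fell, beside 43.5% and 43.3%. With PMEL 1 rose and 4 fell, beside 22.1% and 17.8%. Between the lines 4 were higher and 7 lower in C32 GFP, beside 38.7% and 47.2%.

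Each of the 6 genes was also compared with every gene tested outside the 6, by the root mean square difference of the group means. Each gene was first centred on its mean over the 6 groups. The nearest genes were CABLES2 (0.136 log2) and SLC2A4RG (0.169) for BNIP3, WASF3 (0.122) and BBS5 (0.137) for P4HA1, and TRIM14 (0.149) and IL6ST (0.174) for ANKRD37. For PDK1 they were FCRLA (0.187) and HPS4 (0.189), for NDRG1 HSD17B14 and CASD1 (0.211 each), and for ADM GRAMD2B (0.260) and AKR1C3 (0.279). None of these 12 is one of the other HIF targets, and the 6 genes themselves were left out of the search. CABLES2, the nearest to BNIP3, ran from -1.51 in PMEL to 1.11 in C32 GFP around its mean, beside -1.63 in PMEL and 1.23 in C32 GFP for BNIP3. Such likeness rests on 6 group means.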

How the data were processed

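Total RNA of 18 melanoma line samples was measured on Affymetrix 3′ arrays. The deposited values are log2 signals made by the authors with GCRMA, per the submitters' processing notes (version not given in the sources used here). This table held 0 missing values and all columns matched the labels. Of 23416 probe sets, 20264 had a single gene symbol, and 995 with several, 2099 with none and 58 controls were left out of the gene tests. Probe sets at log2 4 or more on at least 3 of 18 arrays were kept (758 of the single-symbol ones were not), and the probe set with the highest mean stands for each of 10940 genes.

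The values of 17 arrays entered lmFit with a mean for each group (11 residual degrees of freedom), followed by eBayes with a trend (limma 3.58.1, R 4.3.3). Benjamini-Hochberg adjustment was made within each comparison, with calls at an adjusted p under 0.05. The same model over all kept probe sets gave the SEs of the 8 probe sets of the 6 genes. The number of arrays limits the precision. The pipeline was tested on simulated data. The 6 genes and all lists were chosen with earlier results of these data known. Named genes are the 6 genes; FHL2, PMEL and NFYA as label checks; up to 4 genes per list and comparison with the smallest adjusted p, plus VEGFA, CA9, SLC2A1, BNIP3L, EGLN3, PDK4, HIF1A and EPAS1; and the 2 nearest genes of each of the 6. MITF, SOX10 and other cell markers are named from fixed marker lists. Promoter windows came from RefSeq (GRCh38.p14). The alternatives changed the arrays used, the filter or floor, the scaling, the choice of probe set, the variance model, the weights or the threshold, added a replicate block, or left out 1 array. Python 3.11.15 and matplotlib 3.10.9 drew the plots.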

Additional observations from a re-analysis of the deposited data

Results flagged for a closer look

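The effect of the FHL2 shRNAs differed between the lines by the test of the difference itself (limma, C32 minus A375M2, in log2) for 44 of the 52 other HIF targets. Among all genes tested 42.1% were called higher and 38.1% lower in this contrast, so that count is near the share over all genes. The lists named here were chosen with earlier results of these data known, so their adjusted p values are not those of an independent choice of genes. Among glycolysis genes, SLC2A1 differed by -3.61 (C32 -1.11, A375M2 2.50, adjusted p = 1.81e-12), GPI by 1.89 (C32 0.31, A375M2 -1.58, adjusted p = 4.79e-15), PFKFB4 by 2.0 (C32 0.94, A375M2 -1.06, adjusted p = 4.57e-12) and PFKFB3 by 1.14 (C32 -0.36, A375M2 -1.51, adjusted p = 5.76e-12). Among secreted and matrix genes, VEGFA differed by -2.11 (C32 -0.50, A375M2 1.61, adjusted p = 5.89e-15), STC2 by -4.98 (C32 -0.21, A375M2 4.77, with A375M2 GFP under log2 4), P4HA2 by -1.66 and PLOD1 by -0.92. Among the remaining targets, VLDLR differed by -4.07, ERO1A by -2.02, WSB1 by -1.37 and DDIT4 by -1.33; the 3 probe sets of ERO1A did not all have this direction. Among oxygen-sensing genes, EPAS1 differed by -2.44 (C32 -1.53, A375M2 0.92, adjusted p = 1.75e-11), ARNT2 by -1.37, RBX1 by 0.93 and CREBBP by -0.83, the last with its other probe set in the opposite direction. Among partners of PDK1, PDK4 differed by 3.15, and by 6.835 with its other probe set. The 3.15 only restates the A375M2 effect, since this probe set stood at the same low value on the 5 C32 arrays used. PDK3 differed by 1.04 with probe sets in both directions, PDHA1 by 0.77 and DLD by 0.50.

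Among the 6 hypoxia response genes, every C32 shFHL2 array lay below C32 GFP and every A375M2 shFHL2 array above A375M2 GFP for NDRG1 (difference of effects -1.10) and ANKRD37 (-1.63). These differences were not tested, since the genes were chosen by values of these data.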

How the results depend on the processing

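The counts of called HIF targets kept within 1.5 times the reported count under all 27 alternatives, in 189 values, but not always by the same genes. With 39 to 48 of 52 called in every comparison but PMEL, a rise past that limit was not possible there. Many alternatives also left out an array of a group outside the comparison. The 189 values are therefore no measure of stability. With the probe set of largest variance, 2 to 7 calls were lost in each comparison, with 7 in shFHL2 against shNFYA, and 5 genes turned direction in A375M2 shFHL2, in shNFYA and in shFHL2 against shNFYA, against 1 to 3 in the other comparisons. Each array left out in turn gave 42 to 44 called of 52 for A375M2 shFHL2, 24 to 28 for PMEL, 43 to 46 for shNFYA, 39 to 42 for shFHL2 against shNFYA, 33 to 40 for C32 shFHL2, 47 to 48 between the lines and 43 to 46 for the difference of effects. Same-numbered arrays did not deviate together, apart from the -0.999 of the third PMEL and GFP arrays, so the numbers were not taken as pairs. With a replicate block the counts were 43, 26, 44, 41, 38, 48 and 43 in the same order, beside 43, 27, 44, 41, 39, 48 and 44 without it. Without replicate 3 of A375M2 PMEL and GFP the PMEL count was 23. Of 966 differences of the 6 genes under 23 alternatives, 938 moved by less than the spread between replicates and 28 by more. Of the 28, 27 came when arrays were centred on their medians and 1, ANKRD37 in PMEL, without these replicates 3. Leaving out an array of a group outside a comparison cannot move that comparison's difference of group means. A filter or floor below 5.544, the lowest array value of these genes, cannot move one either. Many of the 938 were therefore fixed in advance, so that count is no measure of stability.

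The precision is limited by 2 or 3 arrays a group, by the replicates 3 that are not independent, and by the crossing of array sets in A375M2 shRNA against GFP and in C32 GFP against A375M2 GFP. It is also limited by signal near the background, as for STC2 in A375M2 GFP, LOX in C32 shFHL2, PDK4 in C32, and CA12 in every group.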
